A study of Mus musculus with 3 samples.

Results

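Interferon-stimulated genes were followed in T follicular regulatory (TFR) cells, the regulatory T cells that enter B-cell follicles and restrain the germinal centre reaction. The set held 40 genes chosen by name, and each was found once among the 25759 genes in the files of all 3 libraries. Of these, 32 exceeded an RPKM (reads per kilobase of exon, scaled to the size of the library) of 5 in at least 1 library, as did 7017 genes in all, and 8 stayed at or below it in every library. The 40 genes cover the transcription factors of the interferon response, sensors of foreign nucleic acid and the antiviral effector families.

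The cells came from spleen and mesenteric lymph nodes of C57BL/6J mice given 125 µg NP-KLH in alum intraperitoneally, boosted on day 7 and sorted on day 10 as B220-CD4+CXCR5+GITRhi cells positive for the Blimp-1 GFP reporter. The library labelled N was of the genotype Nfatc1fl/fl.Prdm1gfp/+.FIC and is titled NFATc1-deficient. The library labelled aA was Nfatc1caaA.Prdm1gfp/+.FIC and is titled as overexpressing NFATc1/aA, and the library labelled PaA was Nfatc1caaA.Prdm1gfp/fl.FIC, titled as also deficient in Blimp-1. All 3 carried 1 Prdm1 gfp allele and FIC, a Cre recombinase expressed from the Foxp3 gene that was also active in some conventional T cells. No library with unmodified Nfatc1 was analysed here, and how many mice each library pooled is not given in the sources used here. With 1 library per genotype there was no replicate, so no test was made, and the intervals below (95%, exact, from exon reads) cover counting error only. Reads without molecular identifiers are not independent molecules, which makes these intervals too narrow.

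The libraries rested on 25465829 to 29726219 reads. Nfatc1 itself was at an RPKM of 63.6 in N, 62.9 in aA and 32.4 in PaA, so its gene-level value did not set N below aA, and PaA was below both, against the titles. That value sums all exons and can miss the loss of some of them, and whether it counts transcripts of the caaA allele is not given in the sources used here. Prdm1, the gene of Blimp-1, was at 25.6, 24.9 and 10.0. The T-cell and sort markers Cd4 (488, 396 and 341) and Cd3e (462, 518 and 377) were high throughout, while Foxp3 was at 32.8, 20.9 and 15.3 and Ctla4 at 148, 188 and 58.7. Genes of other cells differed between the libraries. The summed RPKM of 6 red cell genes was 573 in N, 2409 in aA and 2153 in PaA. That of 7 NK and CD8 T-cell genes was 125, 278 and 424, most of it Nkg7 (108.2, 252.4 and 400.8). Of the 4 above an RPKM of 5, Nkg7, Klrb1c and Klrd1 were higher in PaA than in N and Cd8b1 was lower. Below it, Cd8a had 18, 179 and 231 reads, Eomes 410, 103 and 320, and Ncr1 12, 15 and 10. The sum of 10 monocyte, macrophage and neutrophil genes was 295, 199 and 289. The sums of 10 B-cell genes were 422, 291 and 338, most of it Cd74 (324.6, 160.1 and 140.0). The MHC class II genes H2-Ab1 (29.97, 47.7 and 74.5) and H2-Aa (47.4, 68.2 and 107.5) on that list went the other way and were more than 2-fold higher in PaA than in N. The sums of 5 plasma cell genes were 96.0, 117.5 and 158.6, and those of 5 dendritic cell genes 2.90, 2.41 and 4.01. S100a9, a neutrophil gene, had 235, 0 and 153 reads. The 8 plasmacytoid dendritic cell genes, markers of a cell type known as a strong source of type I interferon, summed to 12.4, 12.7 and 8.21, of which Pacsin1 gave 8.21, 9.86 and 3.20 and the defining marker Siglech 29, 5 and 3 reads. The part of these cells in the results below was not tested, and fewer cells of a type cannot be told apart from less RNA per cell in such bulk samples.

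Interferons act through receptors that activate JAK kinases and STAT proteins. Type I interferon (alpha and beta) assembles a complex with STAT2 and IRF9 that binds the interferon-stimulated response element (ISRE), while type II interferon (gamma) acts mainly through gamma-activated sites (GAS). The genes they induce encode proteins that sense foreign nucleic acid, degrade or sequester viral RNA, attack vacuoles that hold pathogens and damp the response itself. Blimp-1, encoded by Prdm1, is known to bind sequences that resemble those of interferon regulatory factors.

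The promoters of these genes carried the response element far more often than promoters at large. A promoter window (250 bases before to 50 after the start, RefSeq, GRCm38.p6) was at hand for 29 of the 40 genes. An ISRE-type match, GAAANNGAAA on either strand, occurred in 18 of 29 (62.1%) against 3.99% of 27025 genes with a window. A GAS-type match, TTCNNNGAA (its own reverse complement), occurred in 8 of 29 (27.6%) against 9.55%. A Blimp-1-type match, AGNGAAAG on either strand, occurred in 3 of 29 (10.3%; Gbp2, Gbp3 and Stat2) against 9.91%. The short NFAT core GGAAA, on either strand, occurred in 25 of 29 (86.2%) against 64.4%. The ISRE-type letters can overlap those of both the Blimp-1 type and the NFAT core, and a match is a description of letters, not evidence of binding. The stretches below show the ISRE-type matches, in capitals, upstream of the gene with the widest difference (Ifi208), of 2 genes that were more than 2-fold lower in PaA than in N (Stat2 and Gbp7) and of 2 classic responders (Isg15 and Ifit1), each written 5′ to 3′ on the strand of its gene. TTTC on both sides of the spacer is the same motif on the other strand.
Ifi208, chr1:173673577-173673646, plus strand: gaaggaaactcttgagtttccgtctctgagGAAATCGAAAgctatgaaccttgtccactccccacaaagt
Stat2, chr10:128270248-128270315, plus strand: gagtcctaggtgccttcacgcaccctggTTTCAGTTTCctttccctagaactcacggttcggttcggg
Gbp7, chr3:142530253-142530322, plus strand: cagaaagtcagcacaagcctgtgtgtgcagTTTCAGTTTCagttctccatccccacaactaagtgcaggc
Isg15, chr4:156200845-156200926, minus strand: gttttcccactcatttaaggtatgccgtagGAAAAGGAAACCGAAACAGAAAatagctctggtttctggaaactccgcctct
Ifit1, chr19:34640755-34640843, plus strand: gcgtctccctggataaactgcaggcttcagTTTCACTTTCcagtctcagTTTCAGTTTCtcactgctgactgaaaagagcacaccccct
Ifi208, Stat2 and Gbp7 held 1 match each in these stretches, Ifit1 held 2, and Isg15 held 3 that overlap.

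The 40 genes spanned a wide range of levels. Ifi27l2a, the gene of a small interferon-inducible membrane protein, ranked first by mean RPKM, followed by Ifi47 and Igtp, both immunity-related GTPases. The ranks of Ifi47 and Igtp rest mostly on reads that matched several places, so they are uncertain. Mx2 ranked last with 2 reads in N and none in aA and PaA, each at or under the 3 reads that a count of 0 allows. The other 7 genes that stayed at or below an RPKM of 5 were Mx1, Rsad2, Oas2, Oasl1, Oasl2, Ifi44 and Ifi204. Mx1, a GTPase against influenza virus whose allele is defective in most laboratory strains, had 40, 36 and 32 reads in N, aA and PaA. Rsad2, which encodes the antiviral enzyme viperin, had 348, 358 and 220. Typical antiviral genes of the Mx and viperin group were thus listed near the bottom, while GTPases of the IRG family and Bst2 were among the abundant ones.

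**Figure D1:**
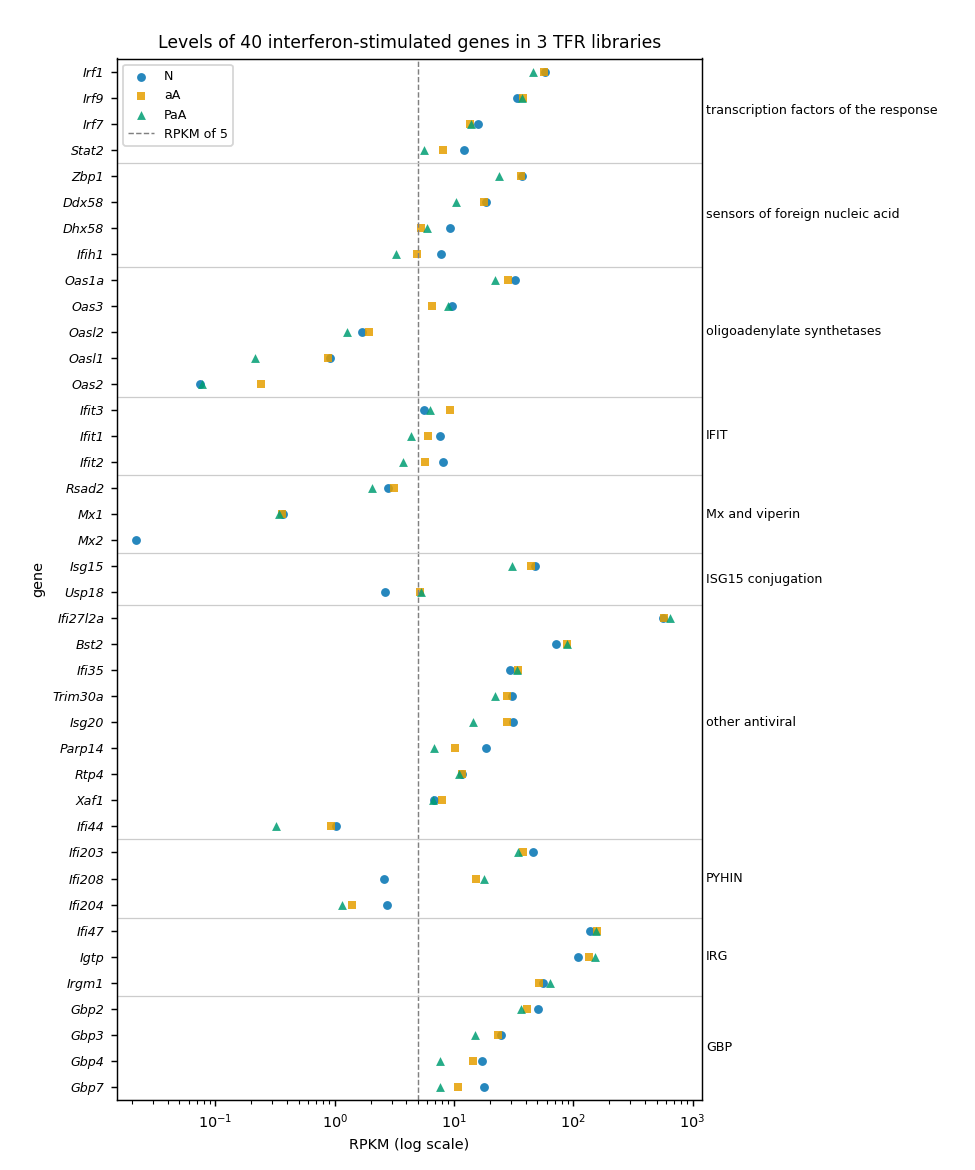
RPKM (log axis) of the 40 genes in the libraries labelled N (circles), aA (squares) and PaA (triangles), grouped by role, with a dashed line at an RPKM of 5. Ifi27l2a lies farthest to the right, Mx2 has a point in N alone because it is at 0 in the other 2 libraries, and Ifi208 shows the widest gap between N and the other libraries among the genes above the line.

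The library labelled aA was compared with the library labelled N first. In aA against N, 1 of the 32 genes was more than 2-fold higher, where 1.44% of all 7017 genes were, and 0 were more than 2-fold lower, where 2.81% were. At 1.5-fold, 3 were higher (Ifi208, Usp18 and Ifit3; 3.12% of all genes) and 5 were lower (Parp14, Dhx58, Gbp7, Ifih1 and Stat2; 11.0% of all genes). Of these genes, Ifi208 and Usp18 exceeded an RPKM of 5 only in aA and PaA, and Ifih1 only in N. They thus entered the 32 through the libraries where they were high. The median log2 ratio was -0.09 for the 32 genes and -0.14 for all 7017. Apart from Ifi208, the set as a whole was thus no lower than the transcriptome, and its median was 0.068 once trimmed mean of M-values (TMM) factors from edgeR set the scale, which moved the median of all genes to 0.02.

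The libraries labelled PaA and aA, whose genotypes differ by the Prdm1 fl allele, were compared next. Both Prdm1 (24.9 in aA and 10.0 in PaA) and Nfatc1 (62.9 and 32.4) differed between them. In PaA against aA, 0 of the 32 genes passed 2-fold in either direction, where 2.15% of all genes were higher and 2.45% lower. At 1.5-fold, 0 were higher (5.52% of all genes) and 6 were lower (Isg20, Gbp4, Ddx58, Gbp3, Ifit2 and Zbp1; 9.19% of all genes). The median log2 ratio was -0.28 against -0.06 for all genes, and 24 of 32 genes were lower in PaA against 56.9% of all genes. It was -0.22 with TMM factors and -0.21 when each ratio was centred on genes of the same exon length.

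The outer libraries differed most. In PaA against N, 2 of the 32 genes were more than 2-fold higher (Ifi208 and Usp18; 2.57% of all genes) and 7 were more than 2-fold lower (Parp14, Ifih1, Gbp7, Gbp4, Ifit2, Stat2 and Isg20; 7.77% of all genes). At 1.5-fold, the same 2 were higher (5.67% of all genes) and 13 were lower, where 22.3% of all genes were. Of the genes past 2-fold, Ifi208 and Usp18 exceeded an RPKM of 5 only outside N, Ifih1 only in N, and Ifit2 only in N and aA. The median log2 ratio was -0.42 against -0.19 for all genes. With TMM factors the 2-fold count was 2 higher and 2 lower (Ifih1 and Parp14), where 3.59% and 3.89% of all genes were, with a median of -0.19 for the genes and 0.04 for all. The levels stood in the order N, aA, PaA, from high to low, in 18 of the 32 genes (56.2%), an order that 38.6% of all 7017 genes had.

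**Figure D2:**
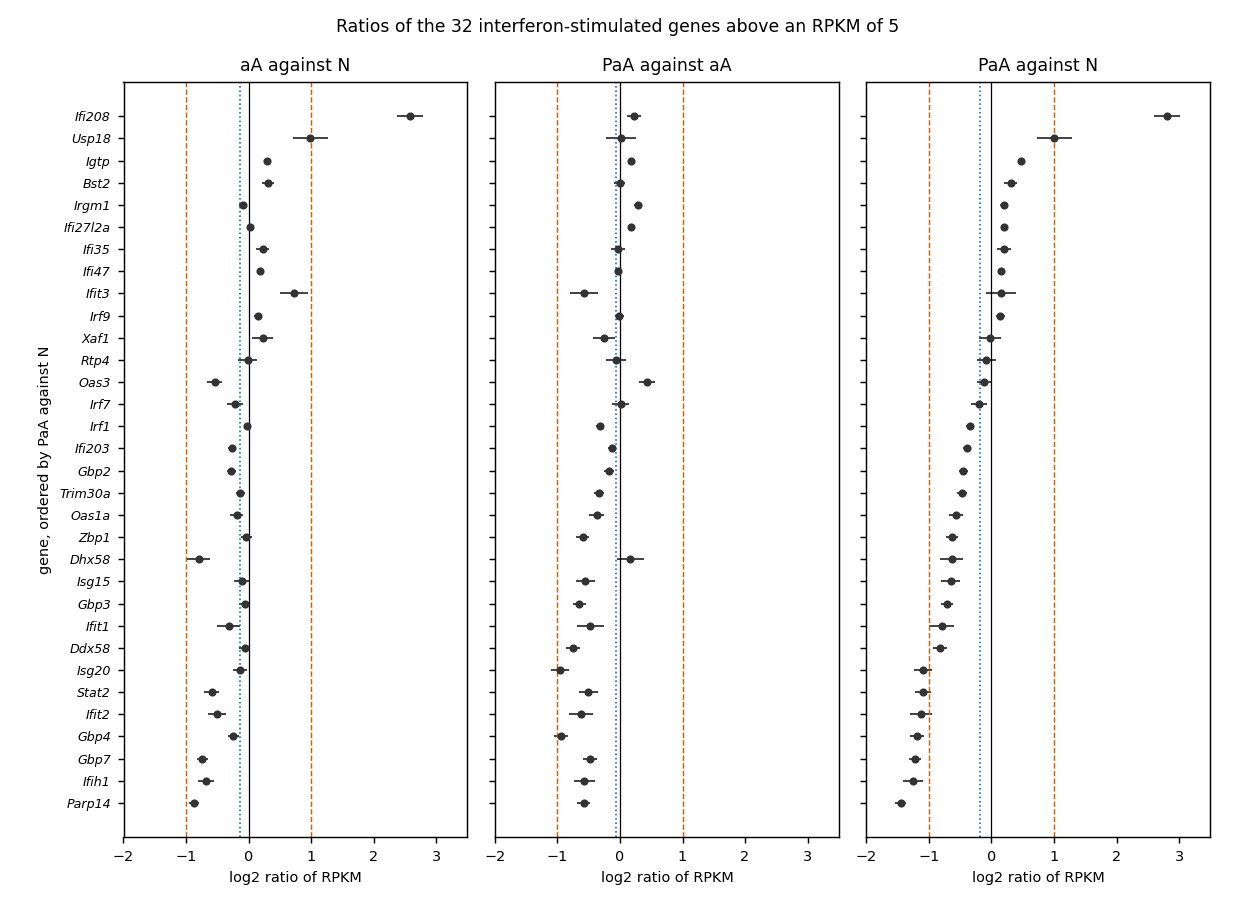
Log2 ratio of RPKM (points) with its 95% counting interval (bars) for the 32 genes above an RPKM of 5, ordered by PaA against N. Dashed lines mark 2-fold, the dotted line the median of all 7017 genes. Ifi208 stands at 2.58 and 2.81 in the panels against N and at 0.23 in PaA against aA, and the 7 genes at the bottom lie below -1 in PaA against N.

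In PaA against N the ratios ran with the length of the transcripts. Across the 32 genes, Spearman's rho of the log2 ratio of PaA against N with exon length was -0.56, and across all 7017 genes it was -0.47 (a description, since genes of 1 pair of libraries share those libraries). It was -0.59 and -0.29 in aA against N and -0.27 and -0.36 in PaA against aA. The 16 genes with up to 2586 bases of exon had a median log2 ratio of 0.04 and the 16 longer ones -0.75, where all genes split at the same length had 0.02 and -0.35. When each ratio was centred on genes of the same exon length by a lowess curve, 3 of the 9 genes stayed past 2-fold, Ifi208 (3.0) and Usp18 (1.09) above and Isg20 (-1.11) below. The 6 others, whose exon lengths run from 3927 bases (Ifit2) to 7417 (Parp14), came to -0.73 (Stat2), -0.76 (Gbp7), -0.78 (Gbp4), -0.80 (Ifih1), -0.81 (Ifit2) and -0.84 (Parp14). They were still lower in PaA than genes of like length, but by less than 2-fold.

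**Figure D3:**
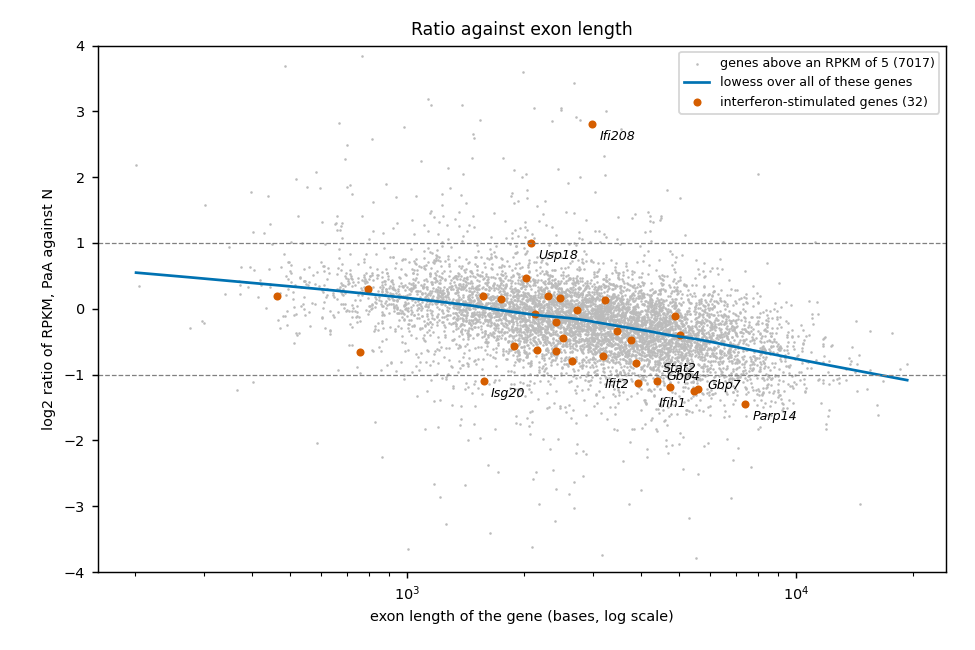
Log2 ratio of RPKM, PaA against N, plotted on exon length (log axis) for the 7017 genes above an RPKM of 5 (grey, 24 of them outside the vertical range) and the 32 interferon-stimulated genes (orange), with a lowess curve over all of them and dashed lines at 2-fold. The curve falls with length, Isg20, Usp18 and Ifi208 lie far from it, and Parp14, Ifih1, Gbp7, Gbp4, Stat2 and Ifit2 lie below it among the longer genes.

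Among the transcription factors of the response, Stat2 differed most and the 3 interferon regulatory factors were nearer to level. Stat2 (chr10:128270559-128292849, plus strand), the STAT particular to type I signalling, was at an RPKM of 12.1 in N, 8.04 in aA and 5.66 in PaA. Its log2 ratio was -0.59 (-0.71 to -0.47) in aA against N and -0.51 (-0.65 to -0.36) in PaA against aA, which adds to -1.09 (-1.23 to -0.96) in PaA against N. The ratios of both steps were thus of like size. Irf9 (chr14:55603571-55610030, plus strand), its DNA-binding partner, was at 34.0, 37.7 and 37.5, with a log2 ratio of 0.14 (0.07 to 0.21) in PaA against N that came to -0.06 on the TPM scale. Irf7 (chr7:141262706-141266481, minus strand), the factor that amplifies type I interferon production, was at 15.9, 13.7 and 13.8, with a ratio of -0.20 (-0.33 to -0.07) that changed sign with TMM factors. Irf7 overlaps Phrf1 on the opposite strand and Irf9 overlaps Rnf31. Irf1 (chr11:53770014-53778374, plus strand), a factor of the gamma response, was at 57.9, 56.9 and 45.6, flat in aA against N at -0.02 (-0.08 to 0.03) and lower in PaA against aA at -0.32 (-0.38 to -0.26).

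All 4 sensors of foreign nucleic acid were lower in PaA than in N, with a median log2 ratio of -0.73. Among all 7017 genes, 66.4% were lower in that comparison, with a median of -0.19. Relative to genes of their length the sensors came to -0.80 (Ifih1), -0.51 (Ddx58), -0.52 (Dhx58) and -0.53 (Zbp1). Ifih1 (chr2:62595798-62646255, minus strand), which encodes the sensor of long double-stranded RNA MDA5, was at 7.83, 4.89 and 3.29 in N, aA and PaA. Its log2 ratio was -0.68 (-0.81 to -0.55) in aA against N, -0.57 (-0.74 to -0.40) in PaA against aA and -1.25 (-1.41 to -1.10) in PaA against N. Ddx58, the gene of the RNA sensor RIG-I, was at 18.5 and 17.7 in N and aA and at 10.5 in PaA. Zbp1, a sensor of Z-form nucleic acid, had the same shape at 37.1, 36.2 and 23.9. Dhx58, which encodes the regulator LGP2 of both RNA sensors, instead stood apart in N at 9.19 and was at 5.28 and 5.91 in aA and PaA.

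The oligoadenylate synthetases, enzymes that activate RNase L in response to double-stranded RNA, held 2 genes above an RPKM of 5. Oas1a was at 32.6, 28.5 and 22.0, with about equal shares of unique and shared reads (914 of 1825 reads unique in N). Oas3 was at 9.58, 6.58 and 8.84, lowest in aA. The low genes were Oasl2 with 164, 172 and 104 reads, Oasl1 with 60, 53 and 12, and Oas2 with 9, 27 and 8. Oasl1 was therefore lower in PaA than in aA by 2.05 on the log2 scale (interval -3.09 to -1.12), though at an RPKM below 1 in every library.

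The 3 IFIT genes, whose proteins bind foreign RNA ends and block its translation, lie within chr19:34550694-34650009 and did not share 1 pattern. Ifit2 (chr19:34550694-34576419, plus strand) was at an RPKM of 8.13, 5.73 and 3.72, a log2 ratio of -0.50 (-0.65 to -0.36) in aA against N and -0.62 (-0.81 to -0.44) in PaA against aA. Across both steps it came to -1.13 (-1.30 to -0.95). Ifit1 descended likewise from 7.60 to 6.10 and 4.38. Ifit3, between them with 3 further IFIT genes outside the set, was instead highest in aA at 9.34, with 5.65 in N and 6.28 in PaA, and 133 of its 293 reads in N were unique. All 3 were lower in PaA than in aA, as were 56.9% of all genes.

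Isg15 was lower and the gene of its protease higher in PaA than in N, each mainly at a different step. Isg15, a ubiquitin-like protein joined to other proteins in the response, was at 47.8, 44.6 and 30.4 in N, aA and PaA, a log2 ratio of -0.55 (-0.71 to -0.40) in PaA against aA. Usp18 (chr6:121245906-121270917, plus strand) encodes the enzyme that removes ISG15 and also blocks the type I receptor. It was at 2.64, 5.24 and 5.30, with a log2 ratio of 0.99 (0.71 to 1.27) in aA against N, 0.02 (-0.22 to 0.26) in PaA against aA and 1.01 (0.72 to 1.29) in PaA against N. It thus sat just under 2-fold in aA and just over it in PaA, and its intervals reach well to both sides of that line. Its intron reads were not higher in aA (106 in N, 49 in aA and 78 in PaA), whereas its exon reads were (164, 298 and 282).

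Of the other antiviral genes, Ifi27l2a, Bst2, Ifi35, Xaf1, Rtp4 and Trim30a stayed within 1.5-fold in every comparison. Ifi27l2a (chr12:103442167-103443680, minus strand) was at 567, 578 and 650, a log2 ratio of 0.03 (-0.02 to 0.08), 0.17 (0.12 to 0.21) and 0.20 (0.15 to 0.24) in the order of the comparisons above. It became -0.16 in PaA against N once centred on genes of its short exon length. Bst2, which tethers budding virions, was at 71.1, 88.4 and 87.9, Ifi35 at 29.7, 34.7 and 34.0, Xaf1, a proapoptotic gene, at 6.83, 7.99 and 6.72, and Rtp4, a chaperone of receptors, at 11.8, 11.7 and 11.1. Bst2 and Ifi35 had counting intervals wholly above 0 in both comparisons against N (Bst2 at 0.31, 0.22 to 0.41, in aA against N). In PaA against N, however, Ifi35 was level on the TPM scale (-0.00015) and Bst2 came to 0.08 relative to genes of its length. Xaf1 was above 0 in aA against N (0.06 to 0.40) and below 0 in PaA against aA (-0.43 to -0.07), and the intervals of Rtp4 held 0 in all 3 comparisons.

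Isg20, Trim30a and Parp14 were lowest in PaA. Isg20 (chr7:78913424-78920396, plus strand), an exonuclease that degrades viral RNA, was at 31.0 in N, 28.1 in aA and 14.5 in PaA. Its log2 ratio was -0.14 (-0.25 to -0.03) in aA against N and -0.95 (-1.10 to -0.81) in PaA against aA, for -1.09 (-1.24 to -0.95) in all. Nearly the whole difference thus lay between aA and PaA. Parp14 (chr16:35832874-35871544, minus strand), an ADP-ribosyltransferase, was at 18.5, 10.1 and 6.76, with -0.87 (-0.95 to -0.79) and -0.58 (-0.68 to -0.48) in the 2 steps and -1.45 (-1.54 to -1.36) in PaA against N, the lowest ratio among the 32 genes. Trim30a, a regulator of inflammatory signalling, was at 30.6, 27.9 and 22.1. The low gene Ifi44 had 88, 74 and 24 reads.

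Ifi208 was the gene of the set that differed most, and it was higher, not lower. Ifi208 (chr1:173673675-173698395, plus strand) belongs to the PYHIN family, which includes sensors of intracellular DNA. It had 229 exon reads in N, 1256 in aA and 1373 in PaA, an RPKM of 2.58, 15.4 and 18.0. Both libraries with Nfatc1caaA, with and without the Prdm1 fl allele, were far above N, and they were close to each other. The log2 ratio was 2.58 (2.38 to 2.79) in aA against N, a 5.99-fold difference, and 2.81 (2.60 to 3.02) in PaA against N, a 7.00-fold one. In PaA against aA it was 0.23 (0.11 to 0.34). The reads that matched no other place followed the same course, with 176, 998 and 1059, as did the reads across exon junctions (28, 144 and 156) and the reads in introns (9, 85 and 137).

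Of the PYHIN genes near Ifi208, 1 stood in the same order at a smaller difference. Ifi213 had 210, 279 and 351 reads, a log2 ratio of 0.54 (0.27 to 0.80) in aA against N and 0.96 (0.71 to 1.22) in PaA against N, at an RPKM below 5 in every library. Ifi203 was at an RPKM of 45.6, 37.7 and 34.6, and Ifi204 had 187 reads in N, 87 in aA and 67 in PaA. Ifi208, Ifi204 and Ifi203 lie within chr1:173673675-173942672. Of the other family members above an RPKM of 5, Ifi206 was at 12.3, 13.4 and 11.4, Ifi209 at 41.2, 39.4 and 29.4, Mndal at 49.3, 33.1 and 34.6, and Aim2, the DNA sensor of the inflammasome, at 10.3, 6.59 and 7.49. Ifi203 overlaps Mndal and 828 of its 6833 reads in N were unique, so its level is uncertain.

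The IRG and GBP families, GTPases induced chiefly by interferon gamma that attack pathogen-containing vacuoles, differed in their values. The 3 IRG genes of the set were all higher in PaA than in N, with summed RPKM of 304 in N, 344 in aA and 371 in PaA. The 4 GBP genes were all lower in PaA than in N, with sums of 110.1, 90.2 and 67.1. Among all 7017 genes, 66.4% were lower in PaA than in N. Igtp (chr11:58199556-58207591, plus strand) was at 110.3, 134.9 and 152.6, a log2 ratio of 0.29 (0.24 to 0.34) in aA against N, 0.18 (0.13 to 0.22) in PaA against aA and 0.47 (0.42 to 0.52) in PaA against N. Ifi47 (chr11:49076587-49096974, plus strand) was at 138.6, 157.2 and 154.6, with 0.18 (0.14 to 0.22), -0.02 (-0.06 to 0.02) and 0.16 (0.12 to 0.20). Irgm1 was at 55.4, 52.1 and 63.5.

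Most reads of Ifi47 and Igtp matched several places. In N, aA and PaA, 347, 298 and 293 reads of Ifi47 were unique, out of 10188, 10592 and 9736. For Igtp they were 366, 504 and 394, out of 6632, 7430 and 7859. On unique reads the ratio of Ifi47 changed sign in all 3 comparisons and that of Igtp in PaA against aA, so their small differences are uncertain. Their levels are uncertain as well. Irgm1, whose reads were all unique, still had a log2 ratio of 0.20 (0.13 to 0.26) in PaA against N. That ratio ran from 0.002 to 0.44 across the other ways of scaling and counting. Irgm2, which overlaps Igtp on the same strand, was at an RPKM of 19.3, 19.6 and 28.9. Other IRG GTPases outside the set were not higher in PaA than in N. Iigp1 was at 25.2, 16.5 and 10.6 (log2 ratio -1.25 in PaA against N), Tgtp2 at 63.7, 45.6 and 41.7 (-0.61) and Tgtp1 at 18.7, 11.3 and 18.5 (-0.02), the Tgtp genes with no unique read.

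Within the GBP family the difference lay at different steps. Gbp7 (chr3:142530342-142550149, plus strand) was at 18.0, 10.8 and 7.72, with a log2 ratio of -0.74 (-0.83 to -0.65) in aA against N, -0.49 (-0.60 to -0.37) in PaA against aA and -1.22 (-1.32 to -1.12) in PaA against N. Gbp4 (chr5:105115767-105139586, minus strand) was at 17.3, 14.6 and 7.58, with -0.25 (-0.33 to -0.16), -0.94 (-1.06 to -0.83) and -1.19 (-1.30 to -1.08). Gbp7 was therefore already lower in aA, while Gbp4 was mainly lower in PaA. Gbp4 overlaps Gbp8 and Gbp9 on the same strand, and its unique reads were 390, 361 and 73 of 2444, 1887 and 919, so its size is uncertain. Gbp3, next to Gbp7, was at 24.6, 23.5 and 15.0 and Gbp2, beyond it, at 50.2, 41.4 and 36.8. Of the paralogues outside the set, Gbp5 was at 16.2, 13.8 and 7.01 and Gbp2b at 2.16, 5.06 and 2.32, more than 2-fold higher in aA than in N and more than 2-fold lower in PaA than in aA.

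The upstream genes of the pathway were read next. Of 21 interferon ligand genes, 17 had no read in any library and 1, Ifng, exceeded an RPKM of 5, at 20.5 in N, 18.1 in aA and 24.6 in PaA. Ifnb1 had 5, 0 and 0 reads and Ifnz 21, 0 and 0. Type I ligand transcripts were thus at or near the floor in these cells, and Ifng, the type II ligand, was not.

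Ifnar1 and Ifngr1 ran in opposite directions. Ifnar2 did not follow Ifnar1, while Ifngr2 was lowest in aA but, like Ifngr1, highest in PaA (log2 ratio 0.44, 0.23 to 0.65, against N). Ifnar1, a chain of the type I receptor, was at 19.4, 12.2 and 7.96, a log2 ratio of -1.29 in PaA against N, or -0.97 relative to genes of its length. Ifnar2, the other chain, was at 21.3, 23.5 and 21.0. Ifngr1, the ligand-binding chain of the type II receptor, was at 86.7, 124.1 and 172.8, a log2 ratio of 0.99, or 1.09 relative to genes of its length, and Ifngr2 was at 3.69, 2.44 and 5.01. The kinase Jak2, which serves the type II receptor, was at 34.3, 16.9 and 9.24, past 2-fold lower in aA against N (-1.02, or -0.79 relative to genes of its length) and in PaA against N (-1.89, or -1.47). Ifngr2 was past 2-fold higher in PaA against aA (1.04). Among the 8 of 9 receptor and kinase genes above an RPKM of 5, 2 passed 2-fold in PaA against N, both lower (Ifnar1 and Jak2; 7.77% of all genes were lower), and Jak2 alone of them did so relative to genes of its length.

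Downstream, Irf2, a competitor of Irf1 that lies outside the set, was at 66.7, 48.8 and 32.5, a log2 ratio of -1.04 in PaA against N, or -0.87 relative to genes of its length. Of 12 inhibitors of the response, 0 passed 2-fold in any comparison, where 1.44% to 7.77% of all genes did so per direction and comparison. Socs1, the inhibitor of JAK kinases that is itself induced by interferon gamma, was highest in PaA at 55.3, with 35.3 in N and 30.7 in aA.

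**Figure D4:**
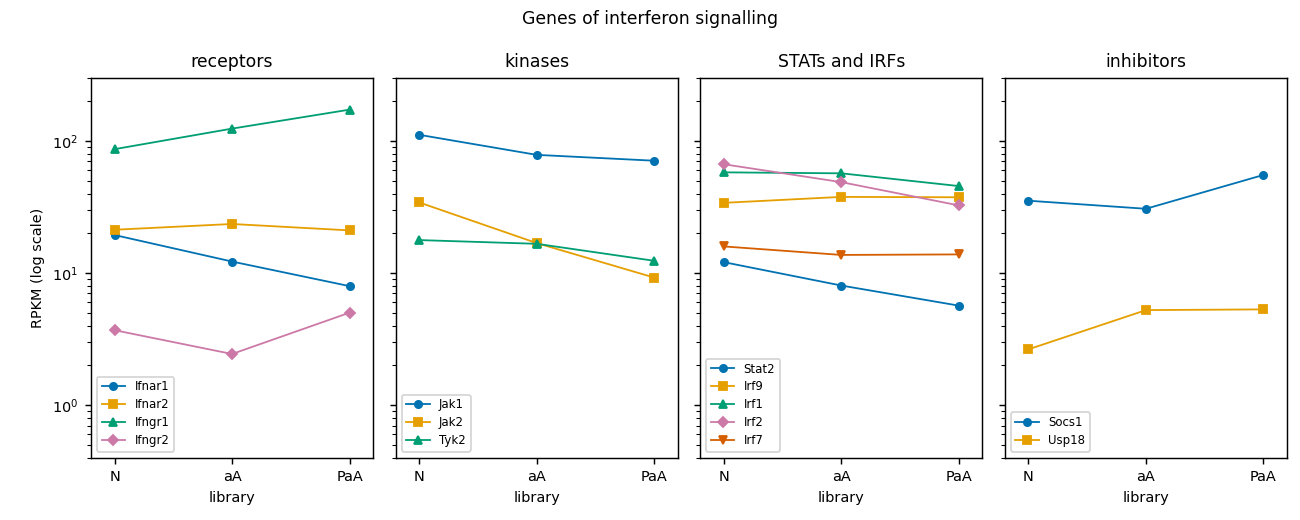
RPKM (log axis) in the libraries N, aA and PaA for receptor chains, kinases, STAT and IRF factors and 2 inhibitors, 1 line per gene, the lines serving to link the libraries. Ifnar1, Jak2, Stat2 and Irf2 descend from N to PaA, Ifngr1 ascends from 86.7 to 172.8, and Irf9, Irf7 and Ifnar2 stay nearly level.

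A further 61 interferon-stimulated genes outside the set gave a mixed picture. Of the 50 above an RPKM of 5, 4 were more than 2-fold higher in PaA than in N (Ly6a, Ly6c1, Ly6c2 and Lgals3) and 7 lower (Apol9b, Slfn8, Tnfsf10, Samd9l, Tmem140, Nlrc5 and Helz2), where 2.57% and 7.77% of all genes were, and the median log2 ratio of the 50 was -0.22. Centred on exon length, 3 of these 4 (without Ly6c2) and 3 of these 7 (Apol9b, Slfn8 and Tmem140) stayed past 2-fold, and Ms4a6b was added on the higher side. In N, aA and PaA, 129, 91 and 44 reads of Tmem140 were unique, out of 905, 714 and 312, so its size is uncertain. For Apol9b they were 354, 116 and 59, out of 642, 260 and 141. Ly6a, the surface antigen Sca-1, was at 231, 334.5 and 507 in N, aA and PaA, and Apol9b at 14.0, 6.18 and 3.58. Tnfsf10, the death ligand TRAIL, was at 19.6, 6.53 and 7.49, so it was lower in both libraries with Nfatc1caaA. Nlrc5, the transactivator of MHC class I genes, was at 10.9, 5.60 and 4.46. Of 42 paralogues of the set, 21 exceeded an RPKM of 5, and 2 of these passed 2-fold in PaA against N, both lower (Gbp5 and Iigp1; 7.77% of all genes were lower), with a median of -0.51. Relative to genes of its length Gbp5 came to -0.89 and Iigp1 to -1.04. The other names on the lower side were Slfn8 at 18.9, 15.3 and 7.08, Samd9l at 5.11, 2.15 and 2.03, Tmem140 at 9.96, 8.58 and 4.01, and Helz2 at 10.7, 8.16 and 5.08. On the higher side, Ly6c1 was at 2.23, 4.29 and 6.09, Ly6c2 at 12.1, 7.99 and 26.7, and Lgals3, the lectin galectin-3, at 29.4, 35.1 and 65.2. Slfn8 and Tmem140 were near level between N and aA and lower in PaA, whereas Samd9l was lower in aA already. In aA against N, 4 of the 50 were more than 2-fold lower (Tnfsf10, Samd9l, Apol9b and Ms4a4c; 2.81% of all genes) and 0 higher (1.44%). In PaA against aA, 2 were higher (Ly6c2 and Ms4a4c; 2.15% of all genes) and 2 lower (Slfn8 and Tmem140; 2.45%), with Ms4a4c at 7.44, 2.62 and 8.45 in the 3 libraries.

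Genes with and without the ISRE-type match were found on both sides. Of the genes with a promoter window and an RPKM above 5, the 17 with the match had a median log2 ratio of -0.47 in PaA against N, with 12 of them lower, and the 8 without it had -0.11, with 5 lower. All 7017 genes had a median of -0.19 with 66.4% lower, so both counts were near that share. Ifi208, the highest ratio, and Gbp7, among the lowest, both held it.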

How the data were processed

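RNA from sorted TFR cells was made into poly(A) libraries and read as single ends, with no molecular identifiers. The authors mapped the reads to GRCm38 with CLC Genomics Workbench at default settings and deposited, per gene, raw counts of total and unique exon reads, intron reads, and RPKM and TPM, both with a decimal comma. How reads matching several places were shared is not given in the sources used here. The 40 genes and all lists were chosen with earlier results of these data known. Groups were taken from the labels, 1 library each.

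Ratios were computed from the deposited counts and the library totals behind RPKM, for 22044 genes with an exon length. Counts under 3 reads were set to 3. Clopper-Pearson 95% intervals came from scipy 1.17.1. A gene was called past 2-fold if its RPKM exceeded 5 in at least 1 library. Genes past that line, Irf1, Irf7, Irf9, Stat2 and the 3 with the highest mean RPKM are given in full, and other pathway genes if past 2-fold or central to signalling. Alternatives were TPM, TMM factors (edgeR 4.0.16, scaling only), median-of-ratios factors, unique reads, other thresholds and pseudocounts. Centring on exon length (lowess in statsmodels 0.14.6, fraction 0.3) and leaving out genes with under 50% unique reads were chosen after seeing the data. The calculations were checked on simulated data. Some genes of these lists are not reported here.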

Additional observations from a re-analysis of the deposited data

How the results depend on the processing

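Scale and exon length decided most 2-fold counts. In PaA against N, the 9 genes past 2-fold became 4 with TMM or median-of-ratios factors (Ifi208, Usp18, Ifih1 and Parp14), where 3.59% and 3.76% of all genes were higher and 3.89% and 3.73% lower. They became 3 when centred on exon length (Ifi208, Usp18 and Isg20; 2.92% higher and 3.28% lower among all genes) and 15 at 1.5-fold (5.67% and 22.3%). On the TPM scale the count was again 9, but Ddx58 (-1.02) came in on the lower side and Usp18 dropped out. On that scale 1.94% of all genes were higher and 12.6% lower. The median of -0.42 became -0.62 on the TPM scale, -0.19 with TMM factors, -0.18 with median-of-ratios factors and -0.17 when centred on exon length. Between these scales the median of all genes ran from -0.39 (TPM) to 0.05 (median of ratios). In aA against N, the count of 1 became 2 with TMM or median-of-ratios factors and with centring on exon length (Usp18 added; 1.91%, 1.92% and 1.82% of all genes higher), 2 with no level threshold (Oas2 added; 9.80% higher) and 8 at 1.5-fold (3.12% higher and 11.0% lower). Its median turned from -0.09 to 0.068 and 0.079 with those 2 sets of factors. In PaA against aA, the count of 0 became 2 on the TPM scale (Gbp4 and Isg20; 3.75% of all genes lower), 1 on unique reads (Gbp4; 2.75%), 1 above an RPKM of 1 (Ifi44; 5.45%), 3 with no level threshold (Ifi44, Oasl1 and Oas2; 12.03%), 1 when centred on exon length (Isg20; 1.91%) and 6 at 1.5-fold (9.19%). Its median became -0.45 on the TPM scale. The other alternatives left counts within 1.5 times the value given. Ifi208 passed 2-fold against N in both comparisons under every alternative run. No gene past 2-fold changed its direction. Of the 32 genes, 10 changed sign under at least 1 alternative in PaA against N, 12 in aA against N and 11 in PaA against aA. With 1 library per genotype, differences between mice, sorts and library preparations cannot be told apart from those between genotypes, and the counts of low genes such as Mx2 (2, 0 and 0 reads) limit what can be said of them.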
